A study of Mus musculus with 6 samples.

Results

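Imprinted genes are read mainly or only from the copy inherited from a given parent, the mother for some genes and the father for others. They were followed here in E14 mouse embryonic stem cells with and without knockdown of Tdg. The set was a list of 47 gene symbols chosen by name. Earlier results of these data were known when it and the further lists below were chosen. Of these, 39 had a probe set that the array annotation assigns to that gene alone, and for each gene that probe set was taken. Another 4 genes (Snrpn, Ube3a, Mirg and Gnas) were covered only by probe sets that list further genes as well. The remaining 4 (H19, Kcnq1ot1, Zrsr1 and Peg13) had no probe set assigned to them in the annotation and were not measured. The 39 genes are set against the 19938 genes that the annotation names singly.

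Many imprinted genes lie in clusters governed by a control region whose cytosine methylation is laid down in the egg or the sperm. These marks are kept after fertilisation while most other methylation is removed, and their upkeep involves the zinc finger protein ZFP57, its partner TRIM28 and the methyltransferase DNMT1. TDG, thymine DNA glycosylase, cuts out oxidised forms of methylcytosine made by TET enzymes. The study's comparison thus bears on genes whose dosage is, for many of them, tied to cytosine methylation.

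The samples were 3 control arrays and 3 Tdg knockdown arrays, all of E14 cells, an established embryonic stem cell line. The culture protocol had gelatin at 0.1%, serum at 15% and leukemia inhibitory factor at 1000 units/ml. Per the labels' protocol, lentivirus was added at a multiplicity of infection of 10, and puromycin at 2 ug/ml followed 48 h later. The labels do not say what vector the control cells carried or whether replicates were separate cultures, so the p-values cover only how far these arrays differ among themselves, and that spread may be technical. The extraction protocol names Kdm2b knockdown cells, whereas sample titles and the design text say Tdg. The arrays measured total transcript and did not tell the parental alleles apart. The expressed allele given for a gene below is the one it is listed under, and was not measured in these cells.

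Signal for Tdg, from 4 probe sets shared with the pseudogene Tdg-ps2, was 11.12, 11.20 and 11.10 on the log2 scale in the controls and 8.24, 8.16 and 7.93 in the knockdown arrays. It fell by 3.03 (SE 0.09, adjusted p 8.79e-05 with limma), to 12.2% of the control level. Knockdown replicate 3 stood apart from the other 5 arrays on the first principal component, at 31.0 against -17.5 to 5.17. All 12 pluripotency markers lay above the array medians of 7.41 to 7.48, and their mean was 11.66 to 11.70 in the controls and 11.63 to 11.73 in the knockdown arrays. The means of the fibroblast markers (6.78 to 6.97 against 6.79 to 7.08) and endoderm markers (7.33 to 7.47 against 7.31 to 7.49) overlapped between groups. Of the 11 endoderm markers, 2 were lower and 1 higher on all knockdown arrays than on any control, 27.3% against 19% of all named genes. With the replicate number as a block 1 of them, Hnf4a (-0.46), passed an adjusted p of 0.05 in limma, against 3.08% of all named genes. Of the 11 trophoblast markers, 4 were lower and 1 higher on all knockdown arrays than on any control, 45.5% against 19% of all named genes. Their mean (8.07, 8.13 and 8.18 against 8.0, 8.05 and 8.12) overlapped too but was lower in the knockdown array of each number. That of the 9 neural markers was 7.74 to 7.81 in the controls and 7.91 to 8.01 in the knockdown arrays. Of the 9, 1 passed the threshold, Pax6 (0.93), against 0.792% of all named genes. With the replicate number as a block 5 passed, against 3.08% of all named genes. Of these 4 were higher (Pax6, Elavl3, Tubb3 and Map2) and 1 lower, Nes (-0.60). The same 5 did not overlap between groups, 55.6% against 19% of all named genes.

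None of the 39 imprinted genes passed an adjusted p of 0.05 in the limma test, against 158 of all named genes (0.792%). With the replicate number as a block, 0 of 39 passed as well, against 3.08% of all genes. At an unadjusted p under 0.05 there were 5, or 12.8%, against 12.5% of all genes. Control and knockdown arrays did not overlap for 6 genes, or 15.4%, against 19% of all genes. Of these 3 were higher in the knockdown (7.98% of all genes) and 3 lower (11% of all genes). The median log2 fold change, knockdown minus control, was -0.02 over the imprinted genes and 0.02 over all named genes. Differences ran from -0.43 for Zdbf2 to 0.24 for Impact, with 17 above 0 and 22 below. The median size of a difference was 0.08 over the imprinted genes and 0.09 over all genes. The mean signal of 11 of the 39 lay below the array median; brightness depends on the probes, so levels are not compared between genes.

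**Figure D1:**
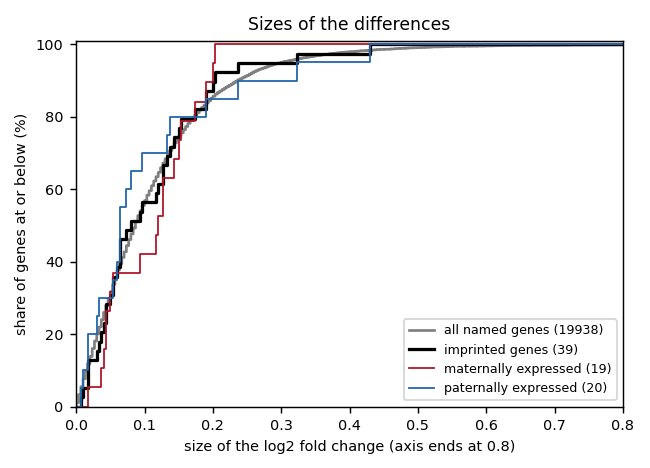
Share of genes (%, vertical axis) whose log2 fold change is at or below a given size (horizontal axis). Lines are for all 19938 named genes, the 39 imprinted genes, and the 19 listed as maternally and 20 as paternally expressed. The line of the imprinted genes runs close to that of all genes, with medians of 0.08 and 0.09, and no imprinted gene reaches 0.5.

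The intervals describe how closely these arrays fixed each difference, from a spread between arrays that may be technical. They do not bound a change for a gene whose signal was at background. Signal over background was not analysed, and the mean of 11 of the 39 lay below the array median. For each of the 39 genes the 95% interval of the difference, which is not adjusted for the number of genes, lay inside a 2-fold change in either direction, as it did for 99.7% of all genes. For 37 of the 39 it also lay inside a 1.5-fold change (93.7% of all genes), the exceptions being Zdbf2 and Rtl1. The median SD between replicates was 0.08 in the control and 0.10 in the knockdown arrays over the imprinted genes, and 0.08 and 0.12 over all genes. Members listed as maternally expressed had a median of -0.04 over 19 genes, with 8 above 0. Those listed as paternally expressed had -0.01 over 20 genes, with 9 above 0.

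**Figure D2:**
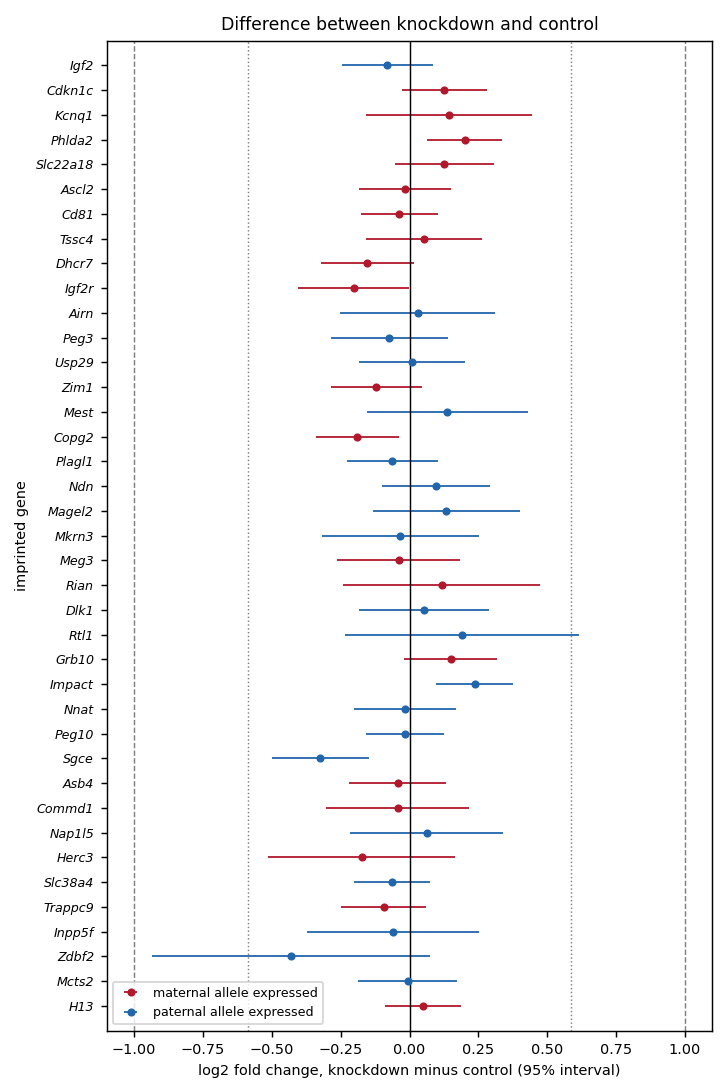
Log2 fold change of each of the 39 imprinted genes (knockdown minus control, horizontal axis), in cluster order from top to bottom, with the 95% interval from limma as a bar. Red marks genes listed as expressed from the maternal allele and blue from the paternal allele. Dashed lines stand at a 2-fold and dotted lines at a 1.5-fold change. Every bar lies inside the dashed lines, and only those of Zdbf2 and Rtl1 cross a dotted line.

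The DNA next to the starts of these genes is shown for the paternally expressed genes whose window holds the ZFP57 hexamer, since that protein keeps imprints by binding this motif where it is methylated. RefSeq promoter sequences of GRCm38.p6 were matched by symbol for 38 of the 47 genes, giving 58 windows of 250 bases before a start. TGCCGC, or GCGGCA on the other strand, was in 10 of the 58 windows (17.2%) and in 8.68% of all 32851 windows of that length; 2 of the 10 are overlapping windows of Mest. The windows of imprinted genes held a median of 10 CpG, against 6 over all windows. Capitals mark the hexamer on either strand, and each sequence runs 5′ to 3′ toward the start.
Zdbf2 upstream start, chr1:63200108-63200357, plus strand: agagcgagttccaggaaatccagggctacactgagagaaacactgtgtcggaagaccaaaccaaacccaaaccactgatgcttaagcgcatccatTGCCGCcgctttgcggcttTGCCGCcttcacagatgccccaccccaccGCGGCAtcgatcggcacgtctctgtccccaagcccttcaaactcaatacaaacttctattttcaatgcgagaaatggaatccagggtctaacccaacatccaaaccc
Mest, chr6:30737800-30738049, plus strand: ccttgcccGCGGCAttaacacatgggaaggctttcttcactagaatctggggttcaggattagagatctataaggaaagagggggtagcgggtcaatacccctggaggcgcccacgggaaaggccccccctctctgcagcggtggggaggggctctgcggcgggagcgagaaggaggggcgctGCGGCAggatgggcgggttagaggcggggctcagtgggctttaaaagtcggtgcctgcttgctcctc
Plagl1, chr10:13090582-13090831, plus strand: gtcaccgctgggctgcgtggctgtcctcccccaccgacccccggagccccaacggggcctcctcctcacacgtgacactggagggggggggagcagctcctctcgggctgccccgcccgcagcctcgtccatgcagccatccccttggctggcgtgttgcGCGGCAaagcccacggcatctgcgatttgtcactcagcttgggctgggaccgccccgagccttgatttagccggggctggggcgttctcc
Nap1l5, chr6:58907127-58907376, minus strand: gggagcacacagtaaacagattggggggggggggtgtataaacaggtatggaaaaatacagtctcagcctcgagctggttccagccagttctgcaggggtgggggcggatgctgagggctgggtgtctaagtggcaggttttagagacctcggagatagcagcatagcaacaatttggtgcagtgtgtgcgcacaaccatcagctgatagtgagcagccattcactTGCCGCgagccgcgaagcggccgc
Mcts2, chr2:152686898-152687147, plus strand: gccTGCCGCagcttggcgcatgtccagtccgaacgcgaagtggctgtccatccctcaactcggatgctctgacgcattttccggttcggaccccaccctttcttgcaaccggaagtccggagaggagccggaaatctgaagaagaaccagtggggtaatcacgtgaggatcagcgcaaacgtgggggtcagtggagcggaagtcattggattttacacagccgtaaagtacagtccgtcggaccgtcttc
The Zdbf2 window shown, at the upstream of its RefSeq starts, holds 3 hexamers and 13 CpG. A number of 3 or more was found in 0.0731% of all windows, but this window was the one with the most among the 58. The window at the downstream start of Zdbf2 holds 0 hexamers and 26 CpG. Mest has 2 hexamers and 14 CpG, Plagl1 has 1 and 19, Nap1l5 has 1 and 10, and Mcts2 has 1 and 20. The hexamer was also in a window of the maternally expressed Copg2, Dhcr7, Meg3 and Zim1. A match only describes these letters; methylation and binding were not measured here.

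Zdbf2, a paternally expressed gene coding for a zinc finger protein, showed the largest difference of the set. Its log2 signal was 10.40, 10.09 and 9.93 in the controls and 9.97, 9.93 and 9.23 in the knockdown arrays. The groups overlapped, and knockdown replicate 3 was the lowest array by far. The difference was -0.43 (SE 0.21, 95% interval -0.93 to 0.07, adjusted p 0.484, or 0.0877 with the replicate block). Without knockdown replicate 3 it was -0.19 (adjusted p 0.589). The SD within the control group alone was 0.24, against a median of 0.08 over the imprinted genes.

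The Peg10 cluster holds Peg10, a retrotransposon-derived gene needed in the placenta, Sgce, the gene for the membrane protein epsilon-sarcoglycan, and Asb4. Sgce had the smallest p of all 39 genes. Its log2 signal was 9.80, 9.75 and 9.80 in the controls against 9.50, 9.55 and 9.33 in the knockdown arrays. All knockdown arrays thus lay below all controls, by -0.32 in the mean (SE 0.08, 79.9% of the control level). The adjusted p was 0.122, or 0.0679 with the block, so Sgce did not pass the threshold. Peg10, which starts next to Sgce and is read from the same paternal allele, differed by -0.02 (SE 0.06), with 12.79, 12.75 and 12.78 against 12.79, 12.78 and 12.70. The difference between the changes of these neighbours was not tested. Asb4, read from the maternal allele, showed -0.04 (adjusted p 0.867).

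Impact encodes an inhibitor of the kinase GCN2 in the amino acid stress response and is read from the paternal allele. Its log2 signal was 11.39, 11.39 and 11.47 in the controls and 11.68, 11.64 and 11.64 in the knockdown arrays. The groups did not overlap, and the difference of 0.24 (SE 0.06, 95% interval 0.10 to 0.38) was several times the SD within either group. The adjusted p was 0.145, or 0.0831 with the block. With a trended and robust prior, an alternative setting of limma, Impact passed at an adjusted p of 0.0234, and with array weights at 0.0118. Of all 19938 named genes, 446 and 1822 passed in these settings, against 158 in the main test.

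**Figure D3:**
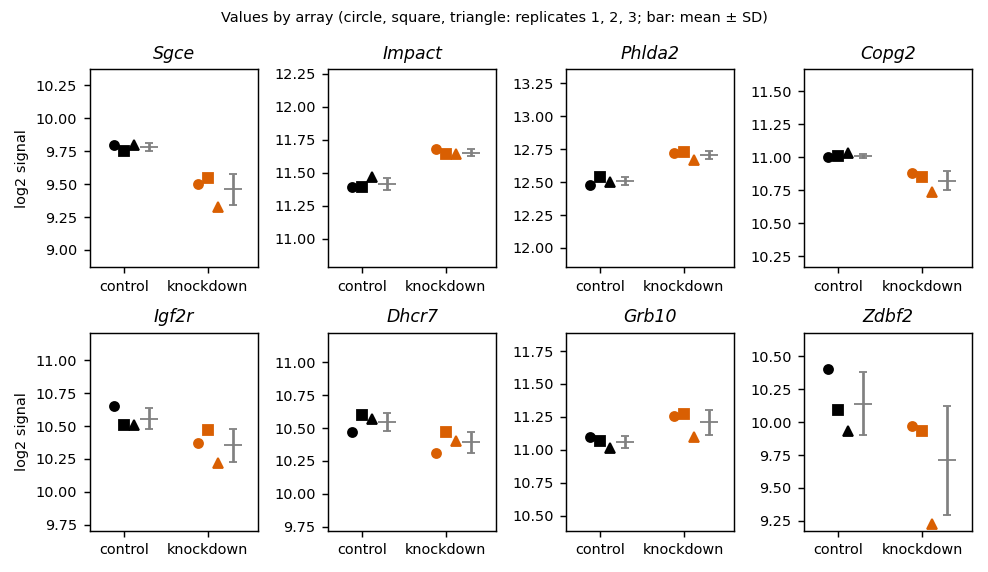
Log2 signal on each array (vertical axis; each panel spans the same range of 1.5) for the 8 imprinted genes with the smallest unadjusted p, with control arrays in black, knockdown arrays in orange and the mean ± SD of 3 arrays in grey. Control and knockdown arrays are apart for Sgce, Impact, Phlda2, Copg2 and Igf2r, and overlap for Dhcr7, Grb10 and Zdbf2.

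In the Kcnq1 domain 8 of 9 genes were measured and 0 passed. Phlda2, a maternally expressed brake on placental growth, read 12.48, 12.54 and 12.50 in the controls and 12.72, 12.73 and 12.67 in the knockdown arrays. Its groups did not overlap, and the SD was 0.03 in either. The difference of 0.20 (SE 0.06) had an adjusted p of 0.205, or 0.106 with the block; it passed with the trended and robust prior (0.0184) and with array weights (0.0334). Cdkn1c, which codes for the cell cycle inhibitor p57, read 9.06, 9.16 and 9.18 against 9.24, 9.32 and 9.22. Its groups did not overlap either, with a difference of 0.13 (SE 0.07, adjusted p 0.512). Kcnq1ot1, the paternally expressed antisense RNA that silences this domain in cis, was not measured, so Cdkn1c has no partner value.

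Dhcr7, the enzyme of the last step of cholesterol synthesis, lies at the edge of that domain. It read 10.47, 10.60 and 10.57 in the controls and 10.31, 10.47 and 10.40 in the knockdown arrays, which touch at 10.47. The difference was -0.15 (SE 0.07, adjusted p 0.449). The potassium channel gene Kcnq1 showed 0.14, which was 0.01 without knockdown replicate 3, its highest array at 7.26. The transporter gene Slc22a18 showed 0.13 and Tssc4 0.05. The tetraspanin gene Cd81 showed -0.04, and Ascl2, a transcription factor of the placental ectoderm, -0.02. Phlda2 and Ascl2 are known for their roles in the placenta. Of the 11 trophoblast markers measured 0 passed (0.792% of all genes), or 2 with the block (3.08% of all genes). These were the keratin genes Krt18 (-0.32) and Krt8 (-0.38), both lower. Without overlap, 4 were lower (Krt18, Krt8, Krt7 and Plet1) and 1 was higher, Hand1 (0.32), together 45.5% against 19% of all named genes. The rest, among them Cdx2, Eomes and Elf5, overlapped. The part of these markers in the values of this domain was not tested.

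Igf2 and Igf2r act in the same growth pathway, the former as the growth factor and the latter as the receptor that clears it. Igf2 read 9.29, 9.38 and 9.43 in the controls and 9.22, 9.28 and 9.36 in the knockdown arrays, which overlap (difference -0.08, SE 0.07, adjusted p 0.732). Its neighbour H19, which shares its control region, was not measured. Igf2r read 10.65, 10.51 and 10.51 against 10.37, 10.47 and 10.22, with all knockdown arrays below all controls. The difference was -0.20 (SE 0.08, adjusted p 0.392), and -0.14 without knockdown replicate 3. Airn, the paternally expressed RNA whose transcription across Igf2r silences it, read 6.41, 6.12 and 6.0 against 6.33, 6.21 and 6.08. That is a difference of 0.03 (SE 0.12, adjusted p 0.946), at signals below the array median.

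In the Mest cluster the genes differed in opposite directions, neither past the threshold. Copg2, a coat protein gene whose maternal copy is favoured, read 11.00, 11.01 and 11.03 in the controls and 10.88, 10.85 and 10.74 in the knockdown arrays. The groups did not overlap, with a difference of -0.19 (SE 0.06, adjusted p 0.275). Mest, a paternally expressed gene coding for a hydrolase-like protein, showed 0.14 (SE 0.12, adjusted p 0.741). Its knockdown replicates 1 and 2 were above all controls and replicate 3 was below them all, at 8.30 against 8.31 to 8.50. Without that array Mest showed 0.27 (adjusted p 0.210), and without knockdown replicate 2 it showed 0.03 (adjusted p 0.908).

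Grb10, an adaptor that dampens insulin and IGF receptor signalling, read 11.10, 11.07 and 11.01 in the controls and 11.26, 11.27 and 11.10 in the knockdown arrays. These touch at 11.10, and the difference was 0.15 (SE 0.07, adjusted p 0.460). Grb10 passed only with array weights (adjusted p 0.0473). In the Peg3 cluster, the zinc finger gene Peg3 read 10.68, 10.59 and 10.54 against 10.60, 10.63 and 10.36. That is a difference of -0.07 (SE 0.09), which was 0.01 without knockdown replicate 3. Its maternally expressed neighbour Zim1 read 6.96, 6.81 and 6.90 against 6.80, 6.82 and 6.69, a difference of -0.12 (SE 0.07, adjusted p 0.579). Usp29, a deubiquitinase gene read from the paternal allele, showed 0.01.

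The Dlk1 to Meg3 cluster carries the paternally expressed Dlk1, a Notch-related membrane protein, and Rtl1, and the maternally expressed noncoding RNAs Meg3, Rian and Mirg, and is known for losing expression in some stem cell lines. Meg3 read 10.92, 10.69 and 11.01 in the controls and 10.87, 10.76 and 10.87 in the knockdown arrays. The knockdown arrays lay within the range of the controls, and the difference was -0.04 (SE 0.09, 95% interval -0.26 to 0.18). Dlk1 read 8.68, 8.82 and 8.89 against 8.68, 8.87 and 9.0, also overlapping, with 0.05 (SE 0.10). Rtl1, a retrotransposon-derived gene, read 6.51, 6.58 and 6.92 against 6.71, 6.63 and 7.24. Its difference of 0.19 (SE 0.18, adjusted p 0.750) had the widest standard error of the set after Zdbf2, and was 0.00 without knockdown replicate 3. Rian showed 0.12 (SE 0.15) on the probe set of its own, with a size and sign that rest on single arrays: leaving out control replicate 2 gave -0.02, leaving out knockdown replicate 1 gave 0.02, and weighting the arrays gave 0.40. On another that also lists AF357355 it showed 0.01, and Mirg, on a probe set shared with Mir410, read 8.48, 8.59 and 8.52 against 8.56, 8.76 and 8.31, also 0.01 in difference and overlapping.

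The Snrpn cluster is the mouse counterpart of the Prader-Willi and Angelman region. Its gene Magel2 read 7.13, 7.33 and 7.26 in the controls and 7.28, 7.23 and 7.61 in the knockdown arrays, with 0.13 (SE 0.11, adjusted p 0.723). Only knockdown replicate 3 lay above the controls, and the difference was 0.02 without it. Ndn, coding for the growth suppressor necdin, showed 0.10 and Mkrn3, a ring finger gene, -0.03. Snrpn, a spliceosomal protein gene measured together with Snurf, read 11.02, 11.10 and 11.15 against 11.01, 11.00 and 10.98. The groups did not overlap, by a margin of the last printed digit, as was so for 19% of all named genes. The Snrpn difference was -0.09 (SE 0.06, adjusted p 0.802 over all 35557 rows, of which 0.0478% passed). Ube3a, a ubiquitin ligase gene, read 10.21, 9.98 and 9.76 against 10.01, 9.94 and 9.65 on a probe set that lists further genes, overlapping, with -0.12 (SE 0.15). Several of these genes are most active in neurons. Of the neural markers given above, Pax6, Elavl3, Tubb3 and Map2 were higher and Nes lower on all knockdown arrays. That is 55.6% of them, against 19% of all named genes, while the other 4 overlapped. The part of these markers in the values of the cluster was not tested.

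Gnas, coding for the stimulatory G protein alpha subunit and for transcripts imprinted in opposite directions, was measured on a probe set shared with its antisense Gnasas1. It read 10.56, 10.56 and 10.57 in the controls and 10.47, 10.43 and 10.38 in the knockdown arrays. All knockdown arrays were lower, by -0.14 in the mean (SE 0.06, unadjusted p 0.0541, adjusted p 0.588 over all rows). Groups without overlap were found for 19% of all named genes in either direction, and for 11% with the knockdown lower. Transcripts of the locus cannot be told apart on this probe set.

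Several imprinted genes are retrocopies lying within an intron of a host gene. Mcts2, a copy of Mcts1, read 9.77, 9.81 and 9.68 in the controls and 9.78, 9.83 and 9.63 in the knockdown arrays, a difference of -0.01 (SE 0.08). Signal from Mcts1 in this probe set was not tested. Its host H13, a signal peptide peptidase gene, read 10.51, 10.53 and 10.58 against 10.56, 10.60 and 10.61, or 0.05 (SE 0.06). For Nap1l5 the difference was 0.06 (SE 0.12). Its host Herc3, a ubiquitin ligase gene, read 9.14, 9.05 and 8.88 against 8.97, 9.05 and 8.53, or -0.17 (SE 0.14, adjusted p 0.715), and -0.01 without knockdown replicate 3. Commd1, host of the unmeasured Zrsr1, showed -0.04, and was 0.07 without that array.

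The remaining genes differed little. The growth suppressor Plagl1 and the amino acid transporter gene Slc38a4 each showed -0.06, Inpp5f, a phosphoinositide phosphatase gene, -0.06 and the trafficking gene Trappc9 -0.09. Nnat, coding for the membrane proteolipid neuronatin, showed -0.02. Their adjusted p ran from 0.655 for Trappc9 to 0.956 for Nnat.

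**Figure D4:**
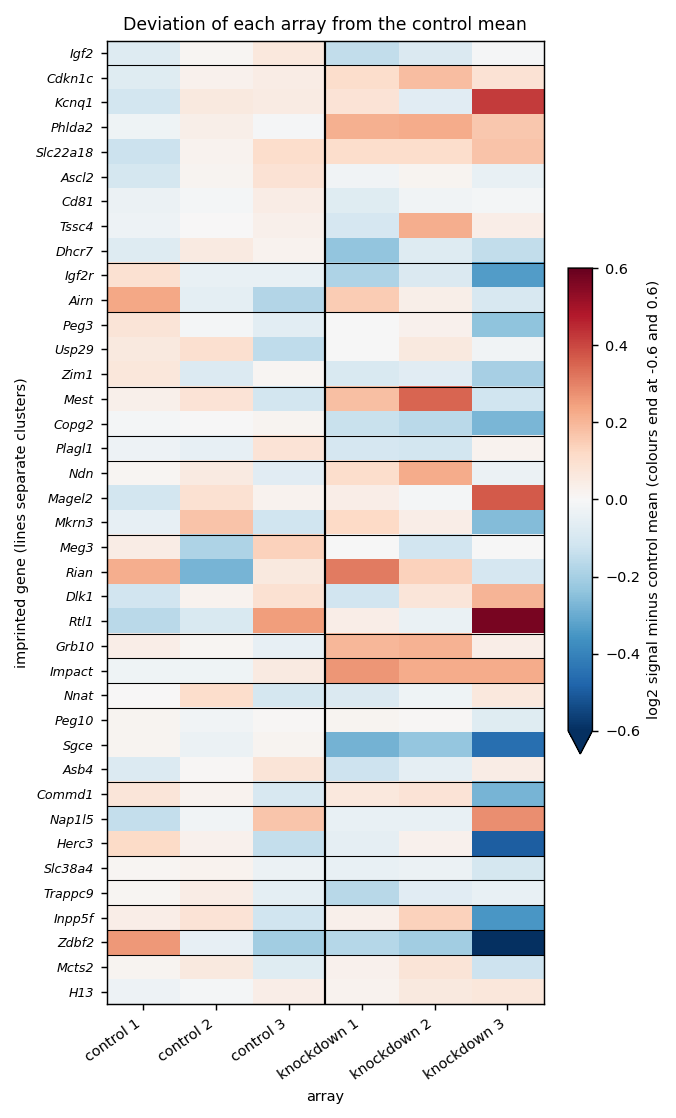
Log2 signal of each array (columns) minus the control mean, for the 39 imprinted genes (rows) in cluster order; horizontal lines separate clusters, the vertical line separates 3 control from 3 knockdown arrays, and red is above and blue below the control mean. Knockdown replicate 3 holds the strongest colours, in Zdbf2, Rtl1, Herc3, Kcnq1 and Sgce; examples of genes with all knockdown arrays on the same side of the control mean are Sgce, Impact, Phlda2, Cdkn1c, Copg2, Igf2r and Zdbf2.

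Knockdown replicate 3 was the lowest of the 6 arrays for 14 of the 39 genes and the highest for 7, together 53.8%, against 62.1% of all named genes. Control replicate 1 was at an end for 15 genes, or 38.5%, against 37.9% of all named genes. Leaving out knockdown replicate 3 gave a median over the imprinted genes of 0.01 in place of -0.02. Still 0 of the 39 passed the threshold without this array, against 290 of all 19938 named genes (158 with all arrays). Sgce (-0.26), Impact (0.24) and Phlda2 (0.22) kept their direction without it.

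**Figure D5:**
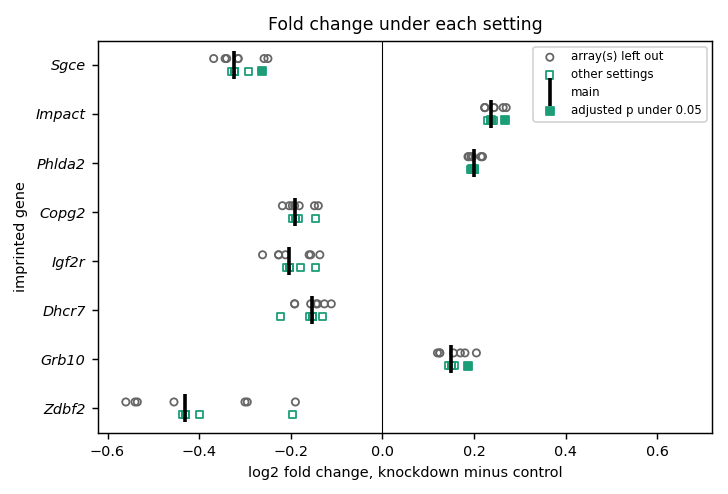
Log2 fold change of the 8 imprinted genes with the smallest unadjusted p (rows) in the main test (black bar), with arrays left out (grey circles) and under other settings (green squares, filled where the adjusted p is under 0.05). All 8 stay on their side of 0; filled squares occur for Sgce, Impact, Phlda2 and Grb10 only.

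Proteins that set, keep or erase imprints were read from a separate list, of which 31 of 32 genes were measured. Of these 1 fell and 0 rose, against 0.792% of all named genes past the threshold in either direction, and the median was 0.02. The gene that fell was Khdc3, coding for a protein of the egg's subcortical maternal complex, with 8.83, 8.86 and 8.89 in the controls and 8.35, 8.47 and 8.38 in the knockdown arrays. The groups were far apart (difference -0.46, SE 0.06, adjusted p 0.0331). The call was lost when any array but knockdown replicate 3 was left out (adjusted p 0.0825 to 0.226), when arrays were centred on their medians (0.0524), and over all rows (0.111). Without any of those single arrays only 0 to 15 of all named genes passed, and the Khdc3 difference stayed at -0.495 to -0.435. Apart from Khdc3, the smallest p in this list belonged to the de novo methyltransferase gene Dnmt3b (0.19, adjusted p 0.323).

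Another 36 of 41 imprinted genes outside the set were measured, with a median of 0.06; 1 fell and 0 rose, against 0.792% of all named genes in either direction. It was the calcitonin receptor gene Calcr of the Peg10 region, with 7.83, 7.83 and 7.84 in the controls and 7.47, 7.39 and 7.25 in the knockdown arrays. The difference was -0.46 (SE 0.07, adjusted p 0.0482), with all knockdown arrays below the controls. This call was lost with quantile normalization (0.0557), with centred arrays (0.0554), over all rows (0.135), and without any array but knockdown replicate 3 (0.123 to 0.255). With any of those single arrays left out, only 0 to 15 of all named genes passed, and the Calcr difference stayed at -0.51 to -0.46.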

How the data were processed

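RNA was measured on Affymetrix whole-transcript arrays. The authors deposited log2 signals, 1 per probe set and array. Per the submitters' processing notes the tool was Affymetrix Expression Console; how signals were summarised and normalized is not given in the sources used here, and the log2 scale was read from the range of 2.26 to 14.03. Of 35557 rows, 21789 list 1 gene, 1621 several and 12147 none; symbols were updated through RefSeq (GRCm38.p6), and for each gene the row with the highest mean over all arrays was kept (19938 genes). Limma 3.58.1 in R 4.3.3 compared the groups over all of them (two-sided, Benjamini-Hochberg, threshold 0.05). Precision is limited by 3 arrays per group, and signal over background was not analysed here. The method was tested on simulated data with noise drawn separately for each gene. Those data do not carry array-wide deviations such as that of knockdown replicate 3.

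The members and lists were chosen with earlier results of these data known. Values by array are given for the 8 members with the smallest p, for named pairs of neighbours and for the member with the smallest p in each cluster with several; from the other lists, genes past the threshold; Dnmt3b, the array values of genes on shared probe sets and the marker genes named were added after values were seen. Marker lists covered pluripotent, fibroblast, trophoblast, endoderm and neural cells.

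Same-numbered arrays of the groups correlated at 0.61, 0.23 and 0.70 in their deviations, so the number was used as a block in an alternative fit; knockdown replicate 2 correlated more with control replicate 1 (0.44) than with its own number, and no label says what the numbers share. Other alternatives were quantile normalization, centring, leaving out dim rows, another prior, weighting of arrays, averaging the rows of a gene, testing all rows, a minimum fold and leaving out arrays.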

Additional observations from a re-analysis of the deposited data

How the results depend on the processing

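The count of 0 imprinted genes past the threshold held in every setting tried except the trended and robust prior (2: Phlda2 and Impact) and array weights (4: these, Sgce and Grb10). Of all 19938 named genes, 446 passed with that prior and 1822 with array weights, so many genes outside the set passed too. The array weights ran from 0.19 for knockdown replicate 3 to 3.79 for control replicate 2. Of 582 member values computed under alternatives, 6 passed. With the replicate block as a pairing, 0 members, 1 regulator and 1 other imprinted gene passed, as without it, and the count of all named genes went from 158 to 614.

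The count of all genes was 351 without the dimmest rows, 446 with the trended and robust prior, 1822 with array weights, 17 over all rows and 75 with a change of at least 1.5-fold. Leaving out 1 array gave 0 to 290, the 0 arising when control replicate 1 or 2, or knockdown replicate 1, was absent. The count of 1 regulator became 0 with centred arrays, all rows, a minimum of 1.5-fold or without both arrays numbered 3, 2 with array weights, and 0 to 1 with 1 array left out. The count of 1 other imprinted gene became 0 in those settings and with quantile normalization, 3 with array weights, and 0 to 1 with 1 array left out. The members' median ran from -0.03 to 0.01 with 1 array left out, being above 0 only without knockdown replicate 3 (0.005 before rounding), and was 0.02 (0.015 before rounding) without both arrays numbered 3, a setting chosen after seeing the data.

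In 16 members, all with differences of at most 0.13 in size, the sign changed in 1 or more settings (31 changes with arrays left out, 11 otherwise); 23 kept theirs. The causes were not tested. The 39 members' 95% intervals, not adjusted for the number of genes, had a median half-width of 0.18. This is not the smallest difference the adjusted test could call. Sgce at -0.32 and Impact at 0.24 did not pass in the main test.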

Other observations

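Other transcripts lie between the outermost members of a cluster in RefSeq order. Between Dlk1 and Mirg these were 33 microRNA precursors and 2 small nucleolar RNA genes on probe sets of their own. None of the 33 microRNA precursors passed the limma threshold (0.792% of all named genes did), 2 had an unadjusted p under 0.05 (12.5% of all named genes), and their median difference was 0.00, with a range of -0.43 to 0.24. Those 2, Mir323 (-0.43, adjusted p 0.357) and Mir381 (-0.20, adjusted p 0.349), were lower on every knockdown array than on any control, a pattern without overlap that 19% of all named genes show in either direction. The small nucleolar RNA gene DQ267102 differed by -0.18 (adjusted p 0.415), with groups that did not overlap.

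Inside the Kcnq1 domain 11 further protein-coding genes had differences of -0.14 to 0.13 and a median of 0.07, with 0 past the threshold (0.792% of all named genes) and 0 at an unadjusted p under 0.05 (12.5% of all named genes). Nadsyn1, coding for NAD synthetase, was the lowest at -0.14 (adjusted p 0.469). In the Peg10 region the cytoskeletal regulator gene Ppp1r9a differed by -0.25 (unadjusted p 0.0435, adjusted p 0.378). Its groups did not overlap, as was so for 19% of all named genes. Pon1, Pon2 and Pon3 differed by 0.08, -0.05 and -0.11. Ppp1r9a, Pon2 and Pon3, and several of the Kcnq1 domain genes such as Tspan32 and Osbpl5, were also counted above among the other imprinted genes. Genes named in these paragraphs were chosen after their values were seen.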
